A study of Mus musculus with 8 samples.

Results

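Collagen chain genes encode the alpha chains from which collagen molecules are built. They were taken here as every gene whose only symbol in the platform annotation reads Col, a type number, the letter a and a chain number, and 44 of the 22180 genes measured met that rule. By class, 11 encode fibrillar chains, 10 encode chains of basement membranes and 23 encode other collagens. The data are 8 Affymetrix expression arrays of dorsal skin from male mice, 1 array for each label. The labels name a genotype, imiquimod (IMQ, a cream that activates an innate immune receptor and is used to produce psoriasis-like skin inflammation in mice), the peptide alloferon in some samples, and the letter B in others.

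WT mice were C57BL/6 and KO mice were B6.Cg-Il22ra1tm1.1Koll/J, a strain with an altered Il22ra1, the gene of IL-22 receptor subunit alpha 1. Whether that allele was deleted throughout the animal, or only in some cells, was not stated in the labels. The arrays without IMQ were WT_CTRL, KO_CTRL, KO_CTRL-B and KO_Allo, and the arrays with IMQ were WT_IMQ, KO_IMQ, KO_IMQ_B and KO_IMQ_Allo. IMQ cream, 83.3 mg at 5%, was given daily from day 1 to day 7, followed 6 hours later by vehicle or, in the samples labelled Allo, by alloferon cream. The study states 4 mice per group. The age of the mice, any pooling of mice on an array and the meaning of B were not stated in the labels.

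The 8 arrays form 4 pairs that differ in IMQ alone, called here the WT, KO, KO B and KO Allo pairs. All values below are log2 expression values, so that a difference of 1 is a 2-fold change, and errors after ± are standard errors from limma over pairs of arrays. A gene was called where its p-value, adjusted over all 22180 genes, was under 0.05. The labels do not say that each array is a separate animal, so p-values reflect only the spread among arrays, and that spread may be technical. In skin as a whole, fewer cells of a type and less RNA per cell cannot be told apart.

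Il22ra1 was at 8.23 and 8.64 on the arrays labelled WT and between 8.59 and 9.40 on those labelled KO, so its level did not separate the genotypes. Whether its probes lie in the altered stretch is unknown here. The epidermal keratins Krt14 and Krt10 ranged from 10.96 to 12.74 and from 12.41 to 12.93 over the 8 arrays. Skin structures moved with IMQ and between arrays without IMQ. The median of 20 hair follicle genes was 9.66 on WT_CTRL, 7.09 on KO_CTRL, 10.10 on KO_CTRL-B and 8.93 on KO_Allo, and ran from 5.64 to 7.66 on the IMQ arrays. The median of 16 skeletal muscle genes was high on WT_CTRL (10.49) and KO_CTRL (10.82) and lay between 8.15 and 8.82 elsewhere. The median of 13 fibroblast genes ran from 8.09 to 8.43 with IMQ and from 8.38 to 8.61 without. Both extremes lay in the KO Allo pair, with the highest value on KO_Allo (8.61) and the lowest on KO_IMQ_Allo (8.09).

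Collagen chains wind together into a triple helix. Fibrillar collagens assemble into the cross-linked fibres that give the dermis its tensile strength, while type IV collagens form the sheet-like network of basement membranes, where type VII anchors the epidermis to the dermis and type XVII joins basal keratinocytes to it. Type VI forms beaded microfilaments in the interstitial matrix, and the FACIT collagens, such as types XII and XIV, sit on the surface of fibrils. In the dermis, fibroblasts make most of the fibrillar and type VI chains, and basal keratinocytes make type XVII.

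Several of the chains lie next to another collagen in the genome. In the RefSeq annotation of GRCm38.p6, 15 of the 44 genes had a collagen as a neighbouring protein-coding gene, among them Col6a2 and Col6a1, Col3a1 and Col5a2, Col4a1 and Col4a2, and Col4a6 and Col4a5. Col4a5 and Col4a6 stand head to head on chromosome X, and the annotated starts used for the stretches below lie 1343 bases apart. The stretches of 250 bases before an annotated start are printed for the 6 genes on which the IMQ results turn: the X-linked type IV pair and Col11a1, which were lower with IMQ, and the type VI chains Col6a1, Col6a2 and Col6a3, which were higher in 3 of the 4 pairs. The sequences are RefSeq's, in GRCm38.p6, written 5′ to 3′ on the strand of the gene. For Col4a5, Col4a6, Col11a1 and Col6a3, a longer RefSeq gene model reaches into the stretch shown. Capitals mark matches, on either strand, to the letters of 5 motifs that did not overlap in the stretches printed. The TATA box was searched as TATAAA. For the CCAAT box the letters were its name. The GC box was searched as GGGCGG. For an AP-1 site, bound by Fos and Jun factors, the letters were TGANTCA. The SMAD box, of factors that act after TGF-beta, was searched as CAGACA.

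Col4a5 (chrX:141475169-141475418, plus strand): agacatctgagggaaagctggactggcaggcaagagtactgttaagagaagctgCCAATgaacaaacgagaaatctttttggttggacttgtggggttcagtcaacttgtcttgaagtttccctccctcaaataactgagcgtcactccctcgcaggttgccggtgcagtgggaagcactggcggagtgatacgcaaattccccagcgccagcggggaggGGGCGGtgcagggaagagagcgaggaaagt
Col4a6 (chrX:141474077-141474326, minus strand): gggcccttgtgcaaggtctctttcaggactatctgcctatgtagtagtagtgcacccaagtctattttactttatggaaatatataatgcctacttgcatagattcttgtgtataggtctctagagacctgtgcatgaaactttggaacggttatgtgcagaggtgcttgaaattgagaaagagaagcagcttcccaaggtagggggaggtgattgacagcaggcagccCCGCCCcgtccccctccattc
Col11a1 (chr3:114030290-114030539, plus strand): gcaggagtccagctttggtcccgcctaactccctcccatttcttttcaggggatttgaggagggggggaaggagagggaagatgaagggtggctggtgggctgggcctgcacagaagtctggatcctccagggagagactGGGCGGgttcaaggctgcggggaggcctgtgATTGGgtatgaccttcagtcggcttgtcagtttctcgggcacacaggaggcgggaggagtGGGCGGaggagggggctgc
Col6a1 (chr10:76726045-76726294, minus strand): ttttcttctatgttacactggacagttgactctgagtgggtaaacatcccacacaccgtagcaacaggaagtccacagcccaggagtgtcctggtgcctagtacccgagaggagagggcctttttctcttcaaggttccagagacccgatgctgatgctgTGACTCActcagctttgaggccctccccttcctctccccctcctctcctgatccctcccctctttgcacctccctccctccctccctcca
Col6a2 (chr10:76623631-76623880, minus strand): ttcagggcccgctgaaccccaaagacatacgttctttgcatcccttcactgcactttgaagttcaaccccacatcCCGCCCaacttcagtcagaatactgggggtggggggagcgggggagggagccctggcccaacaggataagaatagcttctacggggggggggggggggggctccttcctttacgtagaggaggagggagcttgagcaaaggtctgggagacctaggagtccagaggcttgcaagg
Col6a3 (chr1:90843972-90844221, minus strand): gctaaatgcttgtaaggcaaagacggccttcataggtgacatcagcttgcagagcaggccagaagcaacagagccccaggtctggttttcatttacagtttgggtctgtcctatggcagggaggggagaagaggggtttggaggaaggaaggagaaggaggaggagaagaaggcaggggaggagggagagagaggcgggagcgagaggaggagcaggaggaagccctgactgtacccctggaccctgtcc

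A stretch of this kind was held in the promoter table for 35 of the 44 collagens. A GC box was found in 21 of these 35 stretches (60.0%), against 32.7% of 32851 stretches of the same length from all genes, and a CCAAT box in 12 of 35, against 33.8%. The share of G and C bases had a median of 52.4% over all stretches, and most collagen stretches lay above it. The motif shares were not adjusted for base composition. Each collagen was counted once, at the outermost start held for it, which need not be the outermost start of the gene. The 32851 were not reduced to 1 stretch per gene, so the shares differ in unit. The TATA box letters were in 5 of 35 (12.4% of all stretches) and those of a SMAD box in 8 of 35 (17.1% of all). The AP-1 letters were in 1 of 35, that of Col6a1 (6.7% of all). Of the stretches shown, those of Col4a5, Col4a6, Col11a1 and Col6a2 held a GC box, and that of Col6a3 held none of the 5 motifs. A match of letters is a description of the sequence only.

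Col11a1 and Col4a6 were the collagens called lower with IMQ over the 4 pairs. Col11a1, a fibrillar chain that helps set fibril width, fell by 0.94 ± 0.13 on the log2 scale. Col4a6, a basement membrane chain, fell by 0.50 ± 0.09. No collagen was called higher with IMQ over the 4 pairs. The question was what IMQ did to collagen expression whatever the genotype, and it was answered with 1 level per pair and 1 shared IMQ effect. Of all genes, 1.19% were called lower and 1.9% higher (3.09% in all), and 2 of the 44 collagens were called, both lower. At an unadjusted p under 0.05 in limma there were 3 of 44 collagens, against 18.8% of all genes. The median difference of the collagens was -0.01, with 22 higher and 22 lower, and the median of all genes was -0.01, with 51.7% of them lower. The difference was below 0 in every pair for 7 collagens (14.3% of all genes) and above 0 in every pair for 3, Col2a1, Col9a2 and Col23a1 (12.6% of all genes).

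Col11a1 stood at 7.46 on WT_CTRL, 6.04 on KO_CTRL, 7.47 on KO_CTRL-B and 7.33 on KO_Allo, and with IMQ at 6.21, 5.35, 6.82 and 6.15 in the same order. It was lower with IMQ in every pair, with differences from -1.25 to -0.65, but KO_CTRL lay below 3 of the 4 IMQ arrays, so the groups overlapped. The difference passed in limma (adjusted p = 0.0253). Among the arrays without IMQ, KO_CTRL had the lowest level of both Col11a1 and the hair follicle list, and among those with IMQ, KO_IMQ was the lowest and KO_IMQ_B the highest for both. With the hair follicle median as a covariate the difference in Col11a1 was -0.34 (limma adjusted p = 0.929), and with the muscle median it was -0.95 (0.538). With either covariate 0 of all genes were called, so the lost call does not single out Col11a1. The other 10 fibrillar chains did not follow this pattern, with fitted differences from -0.21 to 0.20.

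Col4a6 stood at 5.86 on WT_CTRL, 6.12 on KO_CTRL, 5.97 on KO_CTRL-B and 5.80 on KO_Allo, and at 5.25, 5.54, 5.50 and 5.48 on the IMQ arrays of the same pairs. All 4 IMQ arrays lay below all 4 arrays without IMQ (limma adjusted p = 0.0479). Its neighbour Col4a5, whose chain combines with that of Col4a6 in the skin basement membrane, stood at 6.19, 6.48, 6.43 and 6.09 without IMQ and at 5.84, 5.59, 5.63 and 5.74 with it. The groups did not overlap there either, and the difference of -0.60 ± 0.13 did not pass (limma adjusted p = 0.0618). All 4 IMQ arrays below all 4 others was seen for these 2 collagens and for 5.04% of all genes. The reverse was seen for 1 collagen, the transmembrane chain Col23a1 (7.36 to 7.61 without IMQ and 7.68 to 7.86 with it), and for 5.96% of all genes.

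The 2 called collagens lost their calls when the WT, KO or KO B pair was left out: the adjusted p from limma was then 0.0533 to 0.13 for Col11a1 and 0.148 to 0.199 for Col4a6. Without a level for each pair the difference of Col11a1 was the same and not called (limma adjusted p = 0.213), Col4a6 was called (0.0371), and Col4a5 was called as well (0.0253). Both kept their direction under each alternative that gave a value. With muscle, hair follicle or fibroblast content as a covariate neither was called (limma adjusted p 0.115 or above), at differences of -0.95, -0.34 and -0.83 for Col11a1 and -0.36, -0.42 and -0.58 for Col4a6. Of all genes, 0 were called with the muscle or the hair follicle covariate and 396 with the fibroblast covariate. The part of these markers in the result was not tested further.

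**Figure D1:**
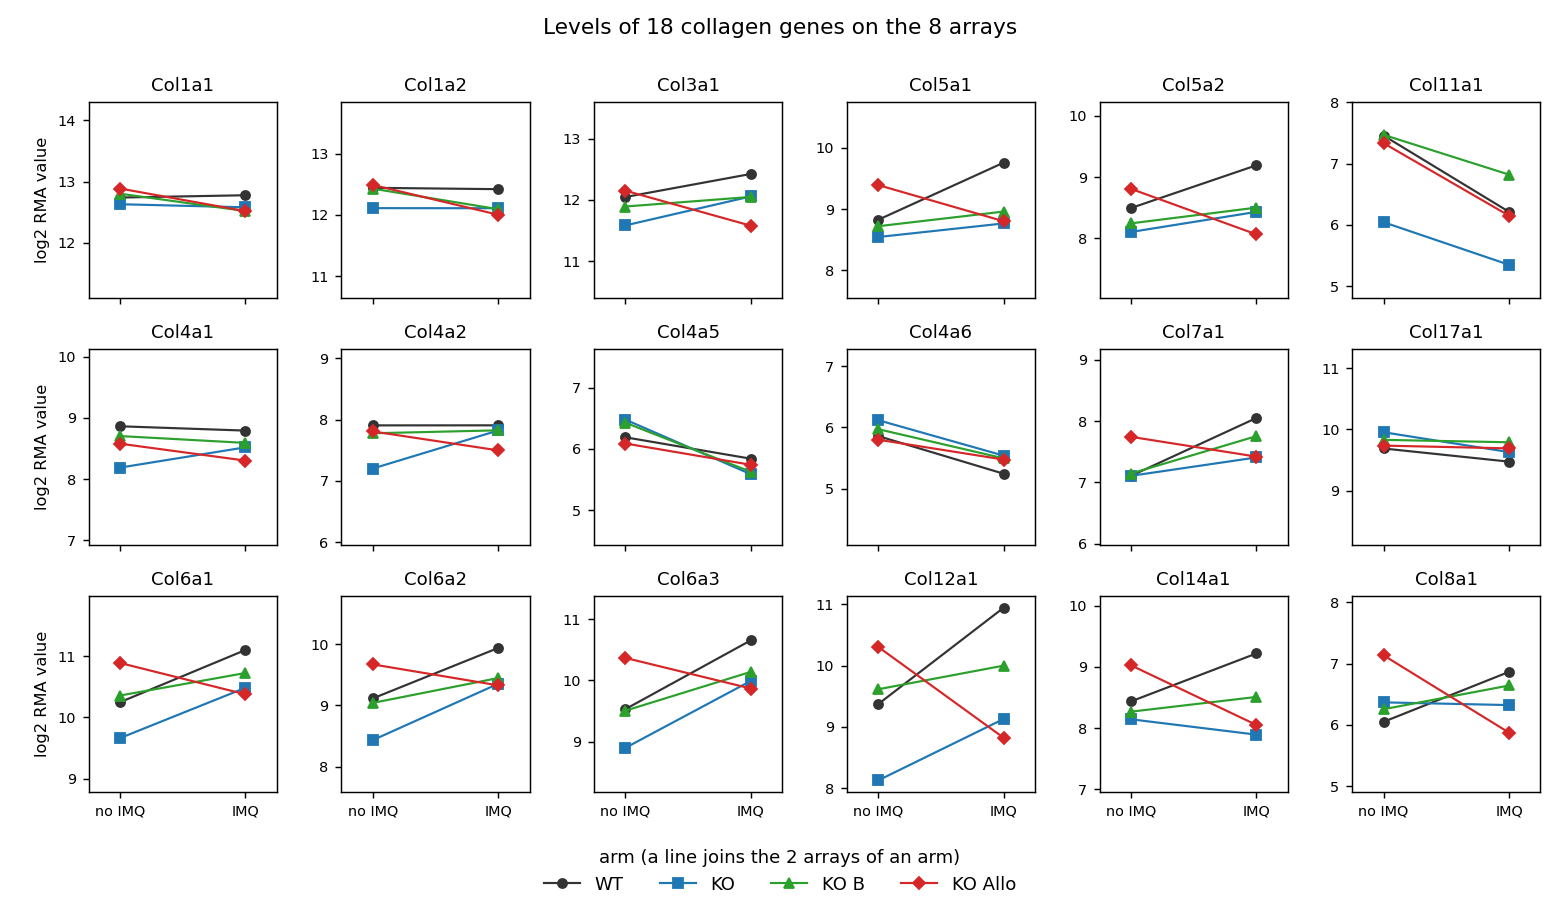
Log2 expression values of 18 collagen genes (y axis, the same span in each panel) without and with IMQ (x axis); each point is 1 array and each line joins the 2 arrays of a pair. Col11a1, Col4a5 and Col4a6 slope down in all 4 pairs, and Col6a1, Col6a2, Col6a3 and Col12a1 slope up in the WT, KO and KO B pairs and down in the KO Allo pair.

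The major fibrillar chains of the dermis were not called. Col1a1, which encodes the more abundant chain of type I collagen, was at 12.74 and 12.78 in the WT pair, without and with IMQ, at 12.63 and 12.58 in the KO pair, at 12.80 and 12.52 in the KO B pair and at 12.89 and 12.52 in the KO Allo pair. The groups overlapped, and the difference over 4 pairs was -0.17 ± 0.11 (limma adjusted p = 0.46; 95% interval -0.42 to 0.09). Col1a2, the other type I chain, gave -0.21 ± 0.12, with differences below 0 in all 4 pairs that ran from -0.49 in the KO Allo pair to nearly 0 in the KO pair. Its second probe set gave 0.22 in the WT pair, so that a lower level in all 4 pairs held for 1 of its 2 probe sets. Col3a1, the type III chain that mixes with type I in skin, was at 12.05, 11.58, 11.89 and 12.15 without IMQ and at 12.42, 12.06, 12.05 and 11.58 with it. It was higher with IMQ in 3 pairs and lower in the KO Allo pair, with a difference over all of 0.11 ± 0.18 (limma adjusted p = 0.808). The type V chains, which start fibrils of type I, gave 0.20 ± 0.22 for Col5a1, 0.13 ± 0.22 for Col5a2 and 0.01 ± 0.11 for Col5a3. Col2a1, Col11a2, Col24a1 and Col27a1, none of them known as a main product of dermal fibroblasts, gave between -0.05 and 0.16.

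In the basement membrane class, the chains Col4a1 and Col4a2 of the ubiquitous type IV network gave -0.03 ± 0.12 and 0.09 ± 0.15 over 4 pairs, and Col4a3 and Col4a4 gave -0.19 ± 0.10 and -0.08 ± 0.09. Of the 6 type IV genes, 5 had a difference below 0 and 1 was called. Col7a1, the chain of the anchoring fibrils, was at 7.11, 7.11, 7.14 and 7.74 without IMQ and at 8.05, 7.41, 7.76 and 7.42 with it, so that only the KO Allo pair was lower with IMQ. Its difference of 0.38 ± 0.20 did not pass (limma adjusted p = 0.362). Col17a1, the hemidesmosomal chain of basal keratinocytes, was lower in each of the 4 pairs, with differences from -0.32 to -0.04 (-0.16 ± 0.10 over all). Col15a1 and Col18a1, whose products lie beneath epithelial and vascular cells, gave -0.28 ± 0.13 and 0.28 ± 0.12, and neither passed.

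The type VI chains Col6a1, Col6a2 and Col6a3 were higher with IMQ in the WT, KO and KO B pairs and lower in the KO Allo pair. Col6a3, the long chain of the type VI molecule, was at 9.53, 8.90, 9.51 and 10.37 on WT_CTRL, KO_CTRL, KO_CTRL-B and KO_Allo, and at 10.66, 9.99, 10.14 and 9.87 on the IMQ arrays of the same pairs. Col6a1 was at 10.25, 9.66, 10.36 and 10.89 without IMQ and at 11.10, 10.48, 10.73 and 10.38 with it. Col6a2 was at 9.11, 8.43, 9.04 and 9.67 without IMQ and at 9.94, 9.35, 9.45 and 9.33 with it. For each of the 3 genes, KO_Allo was higher than the other 3 arrays without IMQ and higher than all IMQ arrays but WT_IMQ, while KO_CTRL was the lowest of the 8. The second probe set of Col6a1 gave pair differences of 1.02, 0.99, 0.33 and -0.47, close to the 0.85, 0.82, 0.37 and -0.51 of the one used. Over 4 pairs Col6a3 differed by 0.59 ± 0.27, Col6a2 by 0.45 ± 0.21 and Col6a1 by 0.38 ± 0.23, and none passed (limma adjusted p 0.301 to 0.431). With the muscle median as a covariate all 3 differences lay below 0, none of them lower than -0.29. In that fit 0 of all genes were called, and the part of muscle content in these differences was not tested further. The newer type VI chains Col6a4, Col6a5 and Col6a6 gave 0.05 ± 0.10, 0.30 ± 0.17 and -0.26 ± 0.11.

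Among the FACIT collagens, Col12a1, which coats fibrils in tissue under load, spread the most over the arrays of all collagens (SD 0.89, n = 8). It was at 9.37, 8.13, 9.62 and 10.31 without IMQ and at 10.95, 9.13, 10.001 and 8.82 with it. WT_IMQ was the highest and KO_CTRL the lowest, and the pair differences ran from 1.57 in WT to -1.48 in KO Allo, so that the difference over 4 pairs was 0.37 ± 0.45. Col14a1, a related fibril-surface chain, was at 8.44, 8.14, 8.27 and 9.03 without IMQ and at 9.22, 7.89, 8.51 and 8.05 with it (-0.05 ± 0.26). Col16a1 gave -0.17 ± 0.13. The remaining FACIT, short-chain, transmembrane and other collagens, 14 genes in all (Col8a1, Col8a2, Col9a1, Col9a2, Col9a3, Col10a1, Col13a1, Col19a1, Col20a1, Col22a1, Col23a1, Col25a1, Col26a1 and Col28a1), had no call and fitted differences between -0.12 and 0.21.

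**Figure D2:**
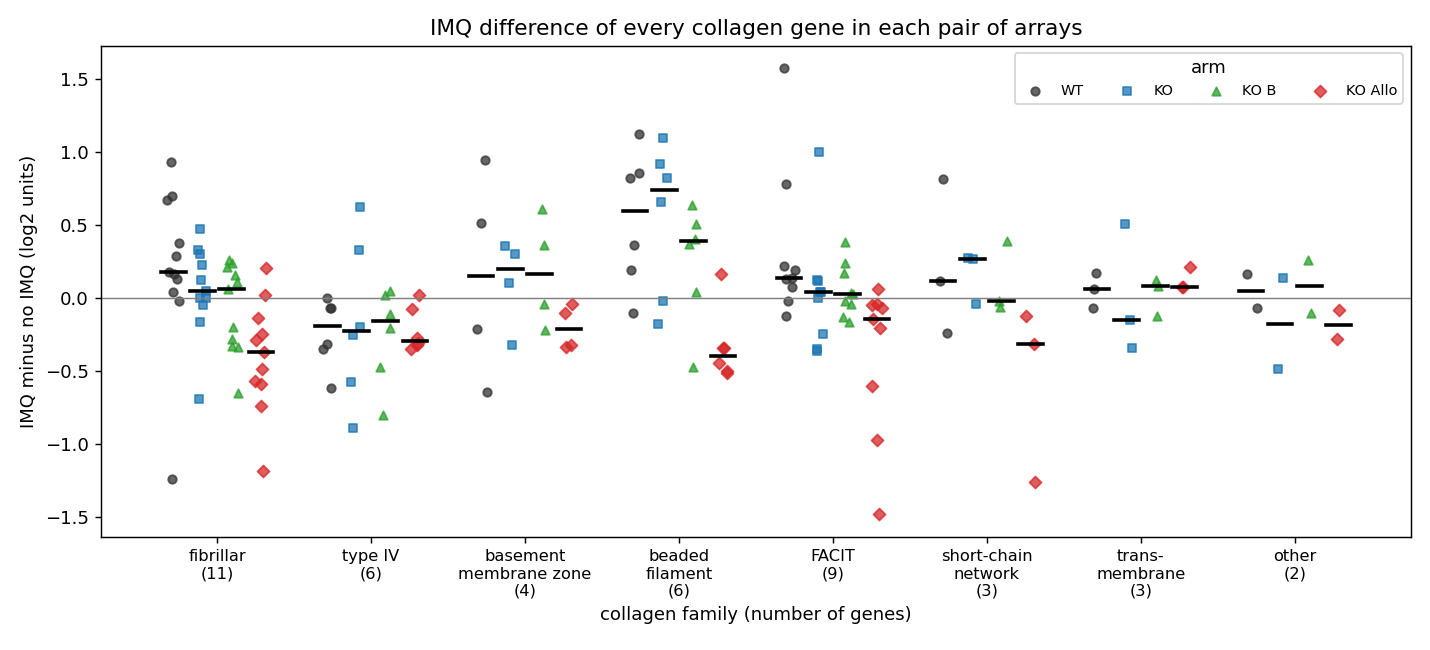
IMQ difference in log2 units (y axis) of every collagen gene in each pair of arrays, by family (x axis, with the number of genes); 1 point is 1 gene in 1 pair, and black bars are medians. The beaded filament (type VI) points lie mostly above 0 in the WT, KO and KO B pairs and, but for Col6a4, below 0 in the KO Allo pair.

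Without the KO Allo pair, 6 collagens were called. Col6a3 rose by 0.95 ± 0.14 (limma adjusted p = 0.0172), Col6a2 by 0.72 ± 0.14 (0.0386) and Col6a1 by 0.68 ± 0.14 (0.0445) over the remaining 3 pairs. Col11a1 fell by 0.86 ± 0.15, Col4a5 fell by 0.68 ± 0.14 and Col4a6 fell by 0.56 ± 0.11. The comparison leaves out a treatment that the other pairs lack, and in it 3.72% of all genes were called higher and 2.17% lower (5.89% in all), against 3 and 3 of the 44 collagens. At an unadjusted p under 0.05 there were 14 of 44 collagens, against 20.9% of all genes. The difference of Col12a1 was 0.99 ± 0.22 and missed the threshold (limma adjusted p = 0.0605), as did Col6a5 (0.51 ± 0.12), Col7a1 (0.62 ± 0.15) and Col18a1 (0.41 ± 0.11). Col3a1, Col5a1 and Col5a2 gave 0.34 ± 0.12, 0.46 ± 0.17 and 0.43 ± 0.13, with adjusted p from 0.126 to 0.189 in limma. Col1a1 gave -0.10 ± 0.12. The calls rest on few arrays: without the WT or the KO pair no collagen was called, and without the KO B pair 5 were (Col6a1, Col6a2, Col6a3, Col11a1 and Col12a1). In the 3 pairs the fibroblast list, with a median difference of 0.14, had 1 of 13 genes called, Twist2. Muscle genes were called lower in 9 of 16 cases (list median -1.48), adipocyte genes in 9 of 12 (-0.96) and hair follicle genes in 13 of 20 (-2.39). Macrophage genes were called higher in 9 of 10 cases (list median 1.26). The part of these lists in the collagen result over 3 pairs was not tested.

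**Figure D3:**
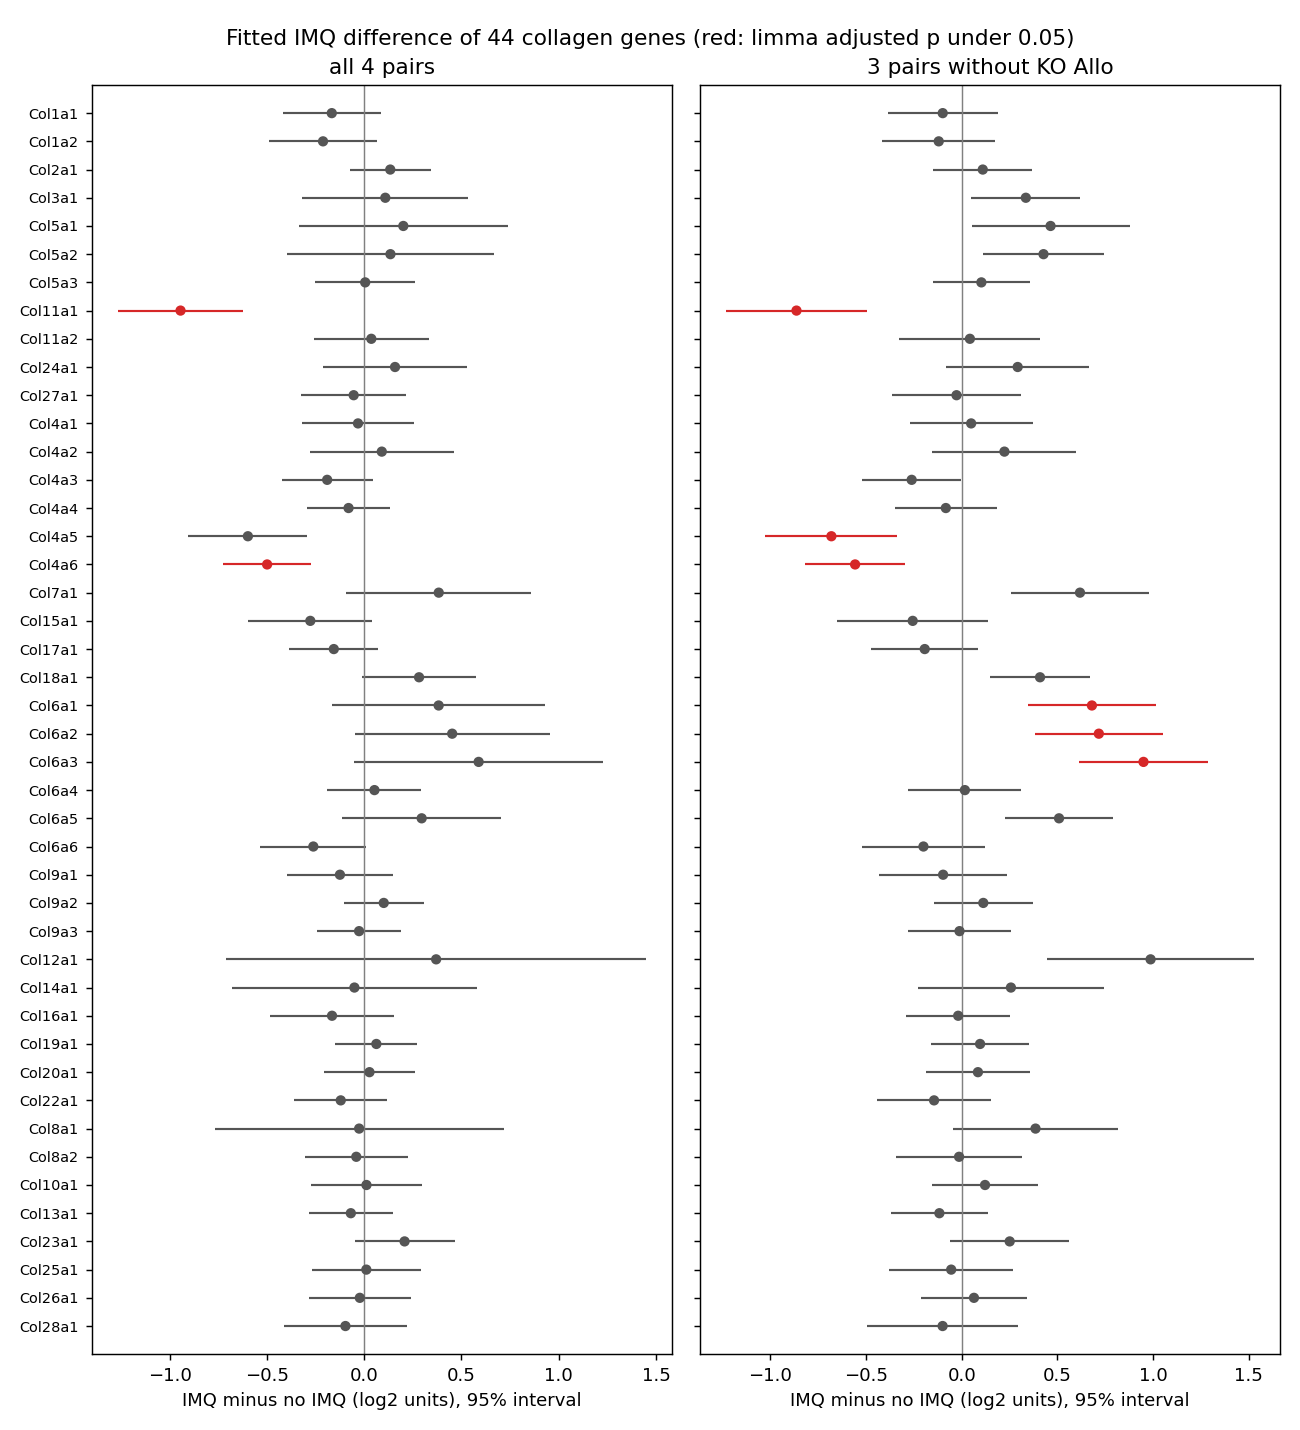
Fitted IMQ difference (x axis, log2 units) with its 95% interval for each of the 44 collagen genes (y axis), over all 4 pairs on the left and over the 3 pairs without KO Allo on the right; red marks genes called in limma. Col11a1 and Col4a6 are red on the left, and Col4a5, Col6a1, Col6a2 and Col6a3 join them on the right.

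In the KO Allo pair, 1 array with IMQ and 1 without, 36 of 44 collagens were at a lower level on the IMQ array, against 49.9% of all genes, with a median of -0.29 against 0.00 for all genes. In the WT, KO and KO B pairs the collagen medians were 0.14, 0.04 and 0.03. Higher in all 3 pairs without alloferon and lower in the KO Allo pair was seen for 13 collagens, among them Col3a1, all 3 type V chains, Col6a1, Col6a2, Col6a3, Col7a1 and Col12a1, and for 7.92% of all genes. For Col5a1 this held for the probe set used (-0.59 in the KO Allo pair) and not for its second probe set (0.04 in that pair). The opposite pattern was seen for 2 collagens, Col4a3 and Col13a1, and for 8.3% of all genes. The response of the KO Allo pair was then set against the mean response of the other 3, a test added after these values were seen. The gap was -2.47 ± 0.44 for Col12a1, -1.65 ± 0.35 for Col8a1, a short chain known from vessel walls, and -1.45 ± 0.28 for Col6a3, and at the other end 0.33 ± 0.28 for Col4a5, 0.28 ± 0.21 for Col4a3 and 0.26 ± 0.27 for Col25a1. None of the first 3 passed in limma (adjusted p 0.235 to 0.297). Of all genes 0.00902% were called, and 0 of the 44 collagens. At an unadjusted p under 0.05 there were 12 collagens, all lower in the KO Allo pair, against 4.83% of all genes lower and 8.24% in either direction. Since KO Allo is 1 pair, these differences have no replicate of the alloferon response, and their errors come from the spread among the other 3 pairs. The median gap was -0.26 for the collagens and 0.02 for all genes, and lists of other genes shifted as well. It was -0.53 for fibroblast genes, -0.56 for collagen receptors, -0.96 for collagen-degrading proteases and -1.31 for macrophage genes. Lists on the other side were hair follicle (0.34), dermal papilla (0.12), skeletal muscle (0.92) and adipocyte genes (0.96). Their part in the collagen gaps was not tested.

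The array of that pair without IMQ was high in some of these genes. KO_Allo exceeded KO_CTRL by 1 log2 unit or more in 5 collagens (Col6a1, Col6a2, Col6a3, Col11a1 and Col12a1), against 1.6% of all genes. KO_Allo exceeded KO_CTRL-B by that much in 0 collagens, against 0.564% of all genes. These comparisons are of 1 array with 1 and have no replicate check. Averaged over IMQ, alloferon KO arrays differed from the other KO arrays by 0.48 ± 0.33 for Col6a3, 0.43 ± 0.26 for Col6a2 and 0.35 ± 0.28 for Col5a1 at the upper end, and by -0.23 ± 0.14 for Col9a1, -0.16 ± 0.14 for Col8a2 and -0.16 ± 0.11 for Col9a3 at the lower end. None was called in limma, and 0 of all genes were; at an unadjusted p under 0.05 there were 0 of 44 collagens, against 5.69% of all genes.

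Genotype was compared over the KO arrays without alloferon. Col12a1 (-0.94 ± 0.55), Col14a1 (-0.62 ± 0.32) and Col5a1 (-0.54 ± 0.28) were the collagens with the largest deficits in KO, and Col4a6 (0.23 ± 0.12), Col17a1 (0.22 ± 0.12) and Col9a1 (0.17 ± 0.14) were those with the largest excess. No gene was called (0 of 22180, limma), and 2 collagens had an unadjusted p under 0.05, Col5a3 (-0.37 ± 0.13) and Col11a1 (-0.41 ± 0.16), against 4.97% of all genes. The difference was below 0 for 11 of 11 fibrillar and 6 of 6 type VI genes and for 30 of 44 collagens, against 47% of all genes. The collagen median was -0.13 and that of all genes 0.01. The KO arrays did not differ alike from WT: the collagen median was -0.13 for KO_CTRL and 0.03 for KO_CTRL-B against WT_CTRL, and -0.22 for KO_IMQ and -0.17 for KO_IMQ_B against WT_IMQ.

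Within each genotype no gene was called for IMQ in limma, 0 of 22180 in either. In WT, which is 1 pair, Col12a1 (1.57 ± 0.80), Col6a3 (1.12 ± 0.53) and Col7a1 (0.95 ± 0.34) had the highest differences and Col11a1 (-1.25 ± 0.25), Col15a1 (-0.65 ± 0.22) and Col4a6 (-0.62 ± 0.19) the lowest. A single pair has no spread of its own, so these errors and the p-values for WT come from the disagreement among the 3 KO pairs, KO Allo included, and from the prior that limma takes from all genes. At an unadjusted p under 0.05 there were 6 of 44 collagens, against 10.8% of all genes. In KO, over 3 pairs that include KO Allo, Col6a3 (0.41 ± 0.30), Col6a2 (0.33 ± 0.24) and Col6a5 (0.27 ± 0.22) were highest and Col11a1 (-0.84 ± 0.15), Col4a5 (-0.68 ± 0.14) and Col4a6 (-0.46 ± 0.11) lowest. The last 3 were the collagens with an unadjusted p under 0.05, against 13.9% of all genes.

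The IMQ response itself was then compared between WT and KO. It was higher in WT for 33 of 44 collagens, with a median of 0.18 against -0.02 for all genes, of which 52.9% were lower. The widest gaps were those of Col12a1 (1.61 ± 0.93), Col8a1 (1.12 ± 0.63) and Col14a1 (1.11 ± 0.47) on one side and Col15a1 (-0.49 ± 0.26), Col11a1 (-0.40 ± 0.29) and Col8a2 (-0.27 ± 0.25) on the other. No gene was called in limma (smallest adjusted p over the collagens 0.983), and 1 collagen, Col24a1, had an unadjusted p under 0.05 (0.68 ± 0.26), against 4.12% of all genes. The KO mean includes the KO Allo pair, whose collagen differences were mostly below 0, and here too the errors come from the 3 KO pairs.

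The arrays with the letter B were compared with the plain KO arrays. Col11a1 was higher in the KO B pair by 1.45 ± 0.19, from 6.04 to 7.47 without IMQ and from 5.35 to 6.82 with it. This did not pass in limma (adjusted p = 0.406), and 0 of all genes were called; at an unadjusted p under 0.05 there were 2 of 44 collagens, both higher, against 7.45% of all genes. Col12a1 (1.18 ± 0.64) and Col6a1 (0.47 ± 0.32) came next, and Col19a1 (-0.28 ± 0.13), Col4a4 (-0.15 ± 0.13) and Col11a2 (-0.10 ± 0.18) were lowest. The hair follicle median was also higher in the KO B pair, 10.10 against 7.09 without IMQ and 7.66 against 5.64 with it. Its part in the Col11a1 difference was not tested.

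Seen by array, WT_IMQ had the highest value of 18 of the 44 collagens and of 10.8% of all genes. KO_IMQ_Allo had the lowest value of 13 collagens and of 12.1% of all genes, and KO_CTRL the lowest of 12 collagens and of 15.9% of all genes. The medians of the deviations of Col6a1, Col6a2 and Col6a3 from their means over 8 arrays were 0.65 on WT_IMQ, 0.41 on KO_Allo, 0.25 on KO_IMQ_B, 0.06 on KO_IMQ, 0.00 on KO_IMQ_Allo, -0.23 on WT_CTRL, -0.25 on KO_CTRL-B and -0.86 on KO_CTRL. The median over the 11 fibrillar collagens deviated less, from -0.19 on KO_IMQ_Allo to 0.23 on WT_IMQ. Over all 6 type VI genes the median ran from -0.60 on KO_CTRL to 0.49 on WT_IMQ. A class median can hide single genes: the fibrillar Col11a1 had a range of 2.12, against 1.44 to 1.76 for Col6a1, Col6a2 and Col6a3.

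**Figure D4:**
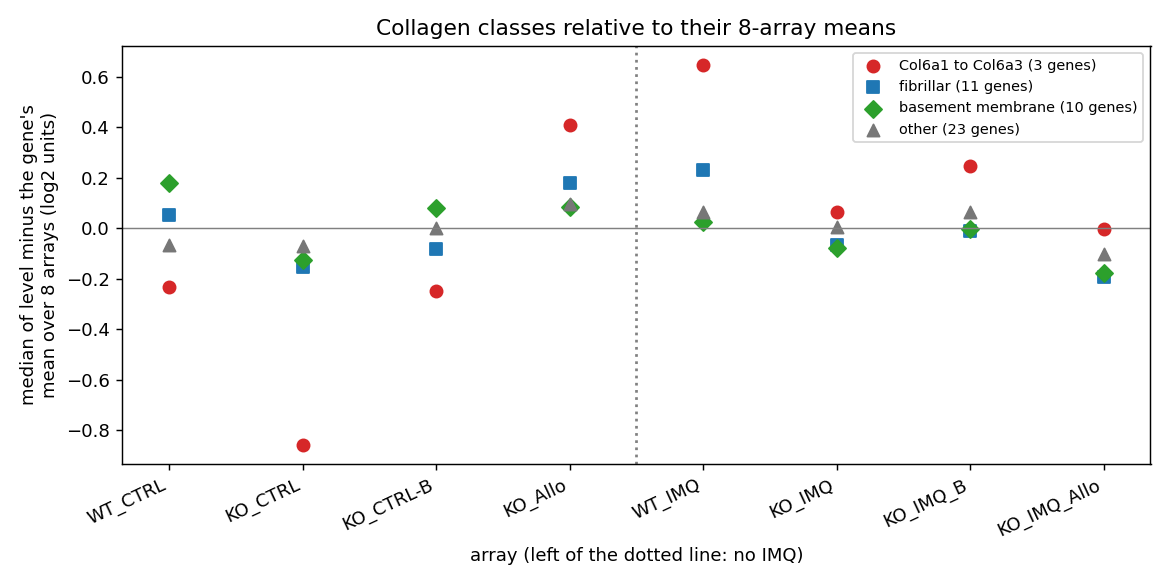
Median over the genes of a class of the level minus the gene's mean over 8 arrays (y axis, log2 units) on each array (x axis; IMQ arrays right of the dotted line). Col6a1 to Col6a3 run from -0.86 on KO_CTRL to 0.65 on WT_IMQ, and the larger classes stay between -0.19 and 0.23.

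Genes that make, cross-link, bind or degrade collagen were followed in lists. Over 4 pairs, 1.9% of all genes were called higher and 1.19% lower. In the 4-pair comparison, 0 of 18 genes of procollagen modification and folding were called; P4hb, which helps hydroxylate prolines, gave 0.47 ± 0.11 and Plod2, a lysyl hydroxylase, -0.60 ± 0.16. Of 13 genes of processing and cross-linking 0 were called, with Loxl1, a cross-linking oxidase, at 0.82 ± 0.25 and Adamts3, a procollagen protease, at -0.61 ± 0.14. Of 13 proteoglycans and fibril partners 0 were called, with Thbs2 at 0.62 ± 0.38 and Fbln1 at 0.52 ± 0.16. Among 22 basement membrane partners, Lama5, a laminin chain of the epidermal basement membrane, fell by 0.57 ± 0.09 (limma adjusted p = 0.0294), and Fras1 gave -0.43 ± 0.13. Among 12 collagen receptors, Lair1, an inhibitory receptor of immune cells, rose by 0.95 ± 0.14 (limma adjusted p = 0.0281), and Cd36 gave -0.46 ± 0.21. Of 10 collagen-degrading proteases 0 were called over 4 pairs, with Mmp13 at 1.64 ± 0.89 and Mmp8 at 1.16 ± 0.25, and of 15 TGF-beta genes 0 were called, with Tgfb1 at 0.67 ± 0.16 and Skil at 0.46 ± 0.11.

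Over the 3 pairs without KO Allo more of these genes passed, in a fit that called 3.72% of all genes higher and 2.17% lower. The collagenase Mmp13 rose by 2.95 ± 0.14, Mmp9 by 1.79 ± 0.23, Mmp8 by 1.46 ± 0.18 and Mmp3 by 1.09 ± 0.17, which made 4 of 10 proteases. The cross-linking enzymes Loxl1 and Lox rose by 1.15 ± 0.15 and 0.78 ± 0.14, and Adamts3 and Pcolce2 fell by 0.76 ± 0.11 and 0.77 ± 0.12 in the same list of 13. P4hb, a prolyl hydroxylase subunit, and P3h1, another prolyl hydroxylase, rose by 0.58 ± 0.11 and 0.55 ± 0.11, 2 of 18. Thbs2 and Fbln1 rose by 1.14 ± 0.21 and 0.69 ± 0.14, 2 of 13, and Tgfb1 rose by 0.87 ± 0.11, 1 of 15. Each of these passed in limma at an adjusted p of 0.0467 or less.

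The marker lists of cell types gave the following over 4 pairs. Hair follicle genes were called lower in 16 of 20 cases, against 1.19% of all genes, with Tchh (-3.64 ± 0.47) and Krt71 (-3.48 ± 0.49) the largest. The others called were Dsg4, Hoxc13, Lef1, Krt25, Krt27, Krt28, Krt31, Krt33a, Krt34, Krt35, Krt73, Krt75, Krt82 and Krt83, with differences from -3.42 to -1.18. Skeletal muscle genes had a list median of -1.25 and were called lower in 3 of 16 cases. These were Actn3 (-2.32 ± 0.45), Myh1 (-1.09 ± 0.19) and Mb (-1.06 ± 0.17), beside Myh4 (-2.48 ± 0.71), which did not pass. Macrophage genes were called higher in 5 of 10 cases, against 1.9% of all genes. Itgam (2.23 ± 0.34) and Adgre1 (2.004 ± 0.23) were the largest, then Arg1 (1.79 ± 0.34), Csf1r (0.95 ± 0.18) and Lyz2 (0.85 ± 0.13). Of 13 fibroblast genes 0 were called, with Pdgfrb at 0.54 ± 0.24 and Twist2 at 0.44 ± 0.32. In 5 further lists at most 1 gene was called: Krt15 (-1.56 ± 0.25) of basal keratinocytes, beside Krt14 (1.15 ± 0.25), Hhip (-1.30 ± 0.25) of the dermal papilla, beside Bmp4 (-1.30 ± 0.26), Car3 (-1.02 ± 0.19) of adipocytes, beside Lep (-1.25 ± 0.29), Tagln (-0.83 ± 0.12) of smooth muscle, beside Des (-0.87 ± 0.23), and none of endothelium, where Emcn gave 0.46 ± 0.21 and Cdh5 0.41 ± 0.22. Schwann cell genes (Pmp22 -0.20 ± 0.12 and Foxd3 -0.17 ± 0.09) and cartilage and bone genes (Hapln1 0.42 ± 0.17 and Acan -0.23 ± 0.15) had no call, and the cartilage and bone median lay between 4.504 and 4.84 on all 8 arrays. The part of these cell types in the collagen differences was not tested beyond the covariates given above.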

How the data were processed

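The deposited files hold log2 values of 41345 probe sets per array. Per the submitters' processing notes, the authors used RMA, a method that summarises the probes of a set, and Affymetrix Power Tools; R 3.3.2 is listed too, with no role. RMA gives all arrays 1 common distribution and compresses differences of dim genes; array medians differed by at most 0.05. Total RNA was extracted with TRIzol, per the labels' protocols. The number of arrays limits the precision.

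By the platform annotation, 23521 probe sets had 1 gene symbol, 1814 several and 16010 none. The probe set with the highest mean stood for a gene (1082 genes had several, among them Col1a2, Col5a1 and Col6a1), which left 22180 genes and no filter. Of the 44 collagens, 27 had a mean above the median gene mean of 6.06 and 17 below. A further probe set with several symbols, one of them Col6a1, was not used. Levels of different probe sets are not comparable.

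limma 3.58.1 in R 4.3.3 fitted a level per pair of arrays and either 1 IMQ effect (3 residual degrees of freedom over 4 pairs) or separate effects for WT and KO (2), with eBayes, and p-values were adjusted by Benjamini-Hochberg over the 22180 genes. Genotype, alloferon and B were contrasts of pair levels, so their errors come from the variation of the IMQ difference between pairs. The comparisons share arrays. Simulations shifted 200 of the 22180 genes. Of genes shifted by 1 log2 unit, 81.5% were recovered over 4 pairs, 54% for genotype and 50.5% for alloferon. Recovery at that shift was 0% over the 3 pairs without KO Allo, for IMQ in KO or in WT, for their difference and for B. At 2 log2 units it was 47% or more, except for the KO Allo response against the other pairs (0%, and 87% at 3). Where recovery was 0%, a lack of calls says little about shifts of that size. In the data, the fit over 3 pairs called 1307 genes, among them 6 collagens that differed by less than 1 log2 unit. The number of shifted genes was not varied in the simulations, so their recovery need not hold for the data.

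The collagens and the lists of other genes were chosen with earlier results of these data known. Named with values were the collagens of types I, III to VII, XII, XIV to XVIII, every collagen called, the 3 highest and 3 lowest differences in each comparison, and of each other list the genes called over 4 pairs and the 2 with the largest differences (hair follicle genes beyond these 2 as a range). Alternatives were a trended prior, no dim genes, the mean of a gene's probe sets, no pair levels, covariates for muscle, hair follicle and fibroblast content, and leaving out arrays.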

Additional observations from a re-analysis of the deposited data

How the results depend on the processing

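Over 4 pairs, 685 genes and 2 collagens were called. Without dim genes it was 1028 genes and 1 collagen, because Col4a6 lies among the dim genes left out, and without the KO Allo pair 1307 genes and 6 collagens. With the muscle or the hair follicle median as a covariate it was 0 genes and 0 collagens, with the fibroblast median (added after seeing the data) 396 genes and 0 collagens, and without the WT and KO pairs (also added) 72 genes and 0 collagens. Without pair levels 2 collagens were called, Col4a5 and Col4a6, so that Col11a1 lost its call. Leaving out 1 array, which removes its pair, gave 0 to 1307 genes and 0 to 6 collagens: 0 genes without the WT pair, 2 without KO B, 260 without KO and 1307 without KO Allo. Over the 3 pairs without KO Allo, leaving out 1 array gave 299 to 1084 genes, against 1307, and 0 to 5 collagens, against 6.

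For IMQ in KO, a trended prior gave 50 genes, no pair levels within KO 58 and leaving out 1 array 0 to 299, against 0. For IMQ in WT, a trended prior gave 1 gene and leaving out 1 array 0 to 41, against 0. For alloferon in KO, leaving out 1 array gave 0 to 1 gene, and for B against plain KO 0 to 49, each against 0. For the KO Allo response against the other pairs, a trended prior gave 33 genes and leaving out 1 array 0 to 24, against 2. None of these calls was a collagen unless a count above says so, and the cause of the shifts was not tested. Within each comparison, no called collagen changed its direction; over 4 pairs the uncalled Col6a1 turned below 0 under 2 alternatives and Col6a2 and Col6a3 under 1 each. The fits already pair arrays with and without IMQ by their labels. A further pairing by replicate number was not possible, because each label has 1 array. Leaving out a WT array leaves no IMQ estimate for WT alone and was not run there.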
